A study of Mus musculus with 8 samples.

Results

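The genes described here are 31 genes of the red cell and platelet lineages, picked by symbol from a count table of 27133 genes in mouse parietal bone, a flat bone of the skull vault. They comprise 22 erythroid genes and 9 platelet and megakaryocyte genes. The erythroid genes are 4 globin genes, 3 genes of haem synthesis, 6 genes of the red cell membrane, 6 genes of erythroid transcription factors, regulators and the erythropoietin receptor, and 3 genes of other red cell proteins. All 31 passed the filter on low counts and were among the 17028 genes tested. RNA was sequenced in 8 libraries. Of these, 4 came from C57BL6J pups given an antibody that blocks CSF1R (anti-CSF1R 7, 8, 9 and 10) and 4 from C57BL6J pups given a control isotype antibody (isotype 2, 3, 4 and 5). In both groups the antibody was given transcranially on postnatal days 2, 4 and 6, and the pups were perfused on day 9 and the bone was taken. CSF1R binds CSF1 and IL-34 and is carried by monocytes, macrophages and osteoclasts, and per the labels the antibody served to deplete myeloid cells. Whether every library is 1 separate pup is not stated in the labels, and p-values here rest on the spread between libraries.

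Red cells and platelets arise in the marrow from a shared progenitor. Erythroblasts, under erythropoietin and the transcription factors GATA1 and KLF1, make globin chains and haem, build a membrane skeleton of spectrin, ankyrin and band 3, and then expel the nucleus, many of them while attached to a central macrophage in an erythroblastic island. Megakaryocytes, which also depend on GATA1, fill granules with chemokines, display the glycoprotein Ib-IX and VI receptors and shed platelets into the vessels of the marrow.

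GATA1 acts through short GATA-containing sites, so the promoters of the genes were read from RefSeq (GRCm38.p6, from 250 bases before to 50 bases after the gene start). Promoters were held for 25 of the 31 genes, and those of Nfe2, Ahsp, Fech, Car1, Slc4a1 and Ank1 were not used here. The promoters of 6 genes are printed because they stand for the patterns described below: the near-identical pair of alpha-globin genes, the erythroid haem enzyme Alas2, the membrane gene Rhag, and the platelet genes Gp1ba and Ppbp. All 6 lie on the plus strand and are written 5′ to 3′, with capitals marking a GATA motif on either strand (AGATAA or AGATAG, and likewise TGATAA or TGATAG). The build behind the counts could not be settled, so these coordinates belong to the RefSeq table.
Hba-a1, chr11:32283422-32283721: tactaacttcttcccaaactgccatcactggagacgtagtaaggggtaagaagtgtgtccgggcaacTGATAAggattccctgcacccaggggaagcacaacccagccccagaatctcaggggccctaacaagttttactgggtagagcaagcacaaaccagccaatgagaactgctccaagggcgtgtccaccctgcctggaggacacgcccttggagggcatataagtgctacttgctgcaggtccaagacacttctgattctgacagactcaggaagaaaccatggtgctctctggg
Hba-a2, chr11:32296242-32296541: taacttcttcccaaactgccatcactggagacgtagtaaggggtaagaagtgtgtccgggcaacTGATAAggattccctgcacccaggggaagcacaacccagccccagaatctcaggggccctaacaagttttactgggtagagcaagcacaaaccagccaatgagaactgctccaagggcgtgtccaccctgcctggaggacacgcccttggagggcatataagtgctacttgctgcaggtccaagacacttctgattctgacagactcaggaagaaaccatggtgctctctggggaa
Alas2, chrX:150547167-150547466: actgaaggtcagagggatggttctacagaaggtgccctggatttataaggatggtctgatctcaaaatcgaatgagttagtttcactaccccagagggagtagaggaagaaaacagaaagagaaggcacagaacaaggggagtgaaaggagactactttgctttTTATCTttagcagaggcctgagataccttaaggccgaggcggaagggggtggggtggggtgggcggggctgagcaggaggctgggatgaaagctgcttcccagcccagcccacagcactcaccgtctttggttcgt
Rhag, chr17:40810899-40811198: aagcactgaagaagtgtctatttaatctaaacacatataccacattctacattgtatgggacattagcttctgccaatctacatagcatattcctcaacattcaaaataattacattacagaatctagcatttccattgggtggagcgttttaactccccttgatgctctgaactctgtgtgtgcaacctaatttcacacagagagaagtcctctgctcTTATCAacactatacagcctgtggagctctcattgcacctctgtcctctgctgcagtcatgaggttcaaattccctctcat
Gp1ba, chr11:70638872-70639171: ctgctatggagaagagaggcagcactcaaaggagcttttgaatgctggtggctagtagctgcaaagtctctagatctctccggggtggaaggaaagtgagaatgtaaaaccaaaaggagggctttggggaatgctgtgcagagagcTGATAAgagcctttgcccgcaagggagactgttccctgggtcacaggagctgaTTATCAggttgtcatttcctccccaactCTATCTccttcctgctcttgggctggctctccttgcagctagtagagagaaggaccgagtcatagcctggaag
Ppbp, chr5:90768268-90768567: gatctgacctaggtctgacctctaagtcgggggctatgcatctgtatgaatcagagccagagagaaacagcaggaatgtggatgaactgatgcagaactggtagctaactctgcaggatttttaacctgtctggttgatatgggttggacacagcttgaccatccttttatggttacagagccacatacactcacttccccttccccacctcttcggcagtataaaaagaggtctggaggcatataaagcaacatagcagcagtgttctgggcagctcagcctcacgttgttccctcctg

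A GATA motif was present in 17 of the 25 promoters (68%), against 29.8% of all 32851 RefSeq promoters of that length. It was present in 12 of 16 erythroid promoters (75%) and in 5 of 9 platelet promoters (55.6%). The alpha-globin promoters held the same TGATAA, 183 bases before the start in Hba-a1 and 186 bases before it in Hba-a2, and were identical at 297 of 303 aligned positions (98%). The beta-globin promoters of Hbb-bs and Hbb-bt were 72.4% identical. Gp1ba had 3 GATA motifs between 104 and 23 bases before its start, the most of any of the genes. Ppbp had none in this window and held the motif TATAAA 30 bases before its start. TATAAA was found in 28% of the 25 promoters and in 13.6% of all promoters, on either strand. The motif CCNCNCCC, which includes CACC boxes bound by KLF1, was found in 52% of the 25 promoters and in 49.5% of all promoters. The ETS motifs AGGAAG and CGGAAG were found in 40% of the 25 promoters and in 46.5% of all promoters. A matching motif is a description of the sequence and not a measured site.

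The libraries held 57.5 M to 69.1 M counts. The detection floor was set at 3 counts, which equalled 0.0396 to 0.0573 CPM, the counts of a gene relative to a library size scaled by the trimmed mean of M values (TMM). This floor covers counting error only. It takes each count as a separate read pair, so it is too low if both mates of a pair were counted. The target gene Csf1r fell to 57.0 ± 11.8 CPM in anti-CSF1R libraries, against 361 ± 152 CPM in isotype libraries (SD, n = 4 each; edgeR adjusted p = 0.0156 over all genes). That call was lost in 5 of 20 alternative analyses, where the adjusted p reached at most 0.111: without each anti-CSF1R library in turn and with a covariate for muscle RNA. The summed level of 8 macrophage markers was 71.5 to 129 CPM in anti-CSF1R libraries and 436 to 939 CPM in isotype libraries. Isotype 3 and isotype 4 stood apart from the other 6 libraries: the Spearman correlation over all genes was 0.916 to 0.943 between them and the others, and 0.986 to 0.997 among the others. Skeletal muscle markers summed to 8.87 to 9.76 CPM in anti-CSF1R libraries, against 35.0, 82.0, 10.5 and 8.88 CPM in isotype 2, 3, 4 and 5. Because isotype 3 and 4 stood apart, a comparison with isotype 2 and 5 alone is given below for genes whose estimates moved. It keeps isotype 2, with 35.0 CPM of muscle markers, and so does not remove muscle RNA.

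None of the 31 genes passed the test between anti-CSF1R and isotype libraries (0 of 31 at an adjusted p below 0.05, edgeR quasi-likelihood test with Benjamini-Hochberg adjustment over all genes), against 144 of 17028 genes (0.846%) in the same fit. DESeq2 also called 0 of the 31, against 4.56% of all genes, and limma-voom called 0, against 0.681%. At an unadjusted p below 0.05 only Epb42 was called, against 17.9% of all genes. The groups overlapped for every one of the 31 genes, whereas 15.0% of all genes had groups that did not overlap. In these bulk samples, fewer cells of a type and less RNA per cell cannot be told apart. The fold changes had a median log2 value of 0.25, with 22 above 0 and 9 below 0, beside a median of 0.03 over all genes tested. They were less precise than those of most genes: the median standard error (SE) was 0.49 on the log2 scale, against 0.25 over all genes, and the median biological coefficient of variation was 0.486, against 0.260. A miss of the threshold therefore does not show that levels were alike, and the intervals are given below.

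**Figure D1:**
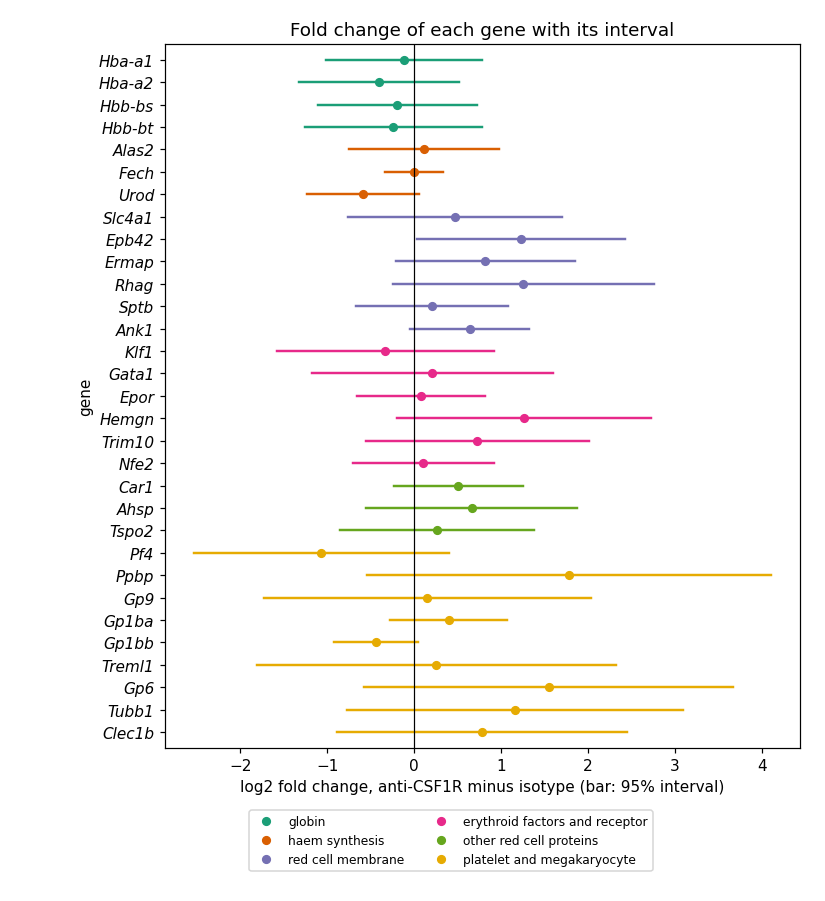
Log2 fold change, anti-CSF1R minus isotype, on the x axis for each of the 31 genes on the y axis, coloured by gene class; the dot is the estimate and the bar its 95% interval from the edgeR fit (n = 4 libraries per group). Every interval but that of Epb42 (0.03 to 2.42) includes 0, and the widest is that of Ppbp (-0.55 to 4.11).

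Hbb-bs and Hba-a1 were the most abundant of the 31 genes, and none of the 4 globin genes passed the test between the groups. Hbb-bs and Hbb-bt encode the adult beta chains of haemoglobin in this strain, and Hba-a1 and Hba-a2 encode its alpha chains. Hbb-bs had 349.6, 362, 222 and 147 CPM in anti-CSF1R 7, 8, 9 and 10, against 211, 566, 277 and 183 CPM in isotype 2, 3, 4 and 5. The highest library was isotype 3 and the lowest anti-CSF1R 10, with wide overlap. Its means were 270.1 ± 104 CPM and 309 ± 175 CPM, a log2 fold change of -0.19 ± 0.41 (SE; 95% interval -1.11 to 0.72; edgeR adjusted p = 0.737).

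Hba-a1 had 177, 176, 106 and 67.9 CPM in anti-CSF1R 7 to 10, against 100.3, 248, 137 and 86.7 CPM in isotype 2 to 5. Its log2 fold change was -0.12 ± 0.40 (95% interval -1.02 to 0.78; adjusted p = 0.843). The same libraries were highest and lowest as for Hbb-bs. Hba-a2 averaged 31.6 ± 12.1 CPM in anti-CSF1R libraries and 41.9 ± 23.9 CPM in isotype libraries, with a log2 fold change of -0.40 ± 0.41 (adjusted p = 0.478). Hbb-bt averaged 39.7 ± 17.4 CPM in anti-CSF1R libraries and 46.8 ± 28.5 CPM in isotype libraries, with a log2 fold change of -0.24 ± 0.45 (adjusted p = 0.708). All 4 estimates were below 0, with a median of -0.22, but that sign depended on the libraries and the scaling. Against isotype 2 and 5 alone all 4 were above 0 with a median of 0.47, and with library size alone in place of TMM 2 were above and 2 below 0, with a median of 0.0037.

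The globin chains moved together from library to library. The ratio of alpha-globin to beta-globin counts (Hba-a1 and Hba-a2 over Hbb-bs and Hbb-bt) was 0.526 ± 0.016 in anti-CSF1R libraries and 0.527 ± 0.026 in isotype libraries, and lay between 0.496 and 0.555 in all 8. The share of all counts taken by these 4 genes ran over a wider range: it was 0.0652%, 0.0690%, 0.0402% and 0.0266% in anti-CSF1R 7 to 10, against 0.0363%, 0.0822%, 0.0454% and 0.0336% in isotype 2 to 5. The near-identical copies limit what can be said of each gene alone, since 56.3% of 101-base windows of the Hba-a1 transcript occur unchanged in Hba-a2 and 62.5% of those of Hbb-bs occur in Hbb-bt. Hba-a1 exceeded Hba-a2 by 4.12 ± 0.44 times in anti-CSF1R libraries and 3.50 ± 0.33 times in isotype libraries. With each pair summed, the log2 fold change was -0.18 ± 0.40 for the alpha pair (adjusted p = 0.758) and -0.20 ± 0.41 for the beta pair (adjusted p = 0.733). Among the other globins, Hbq1b, a theta-globin gene, had 0.588 ± 0.305 CPM in anti-CSF1R libraries and 0.354 ± 0.192 CPM in isotype libraries (log2 fold change 0.75, adjusted p = 0.344, and 1.46 against isotype 2 and 5 alone) and was the only one of 6 tested. The embryonic Hbb-y had 0 counts in every library, as did Hbb-bh2, and the embryonic Hba-x and Hbb-bh1 had at most 4 counts in any.

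**Figure D2:**
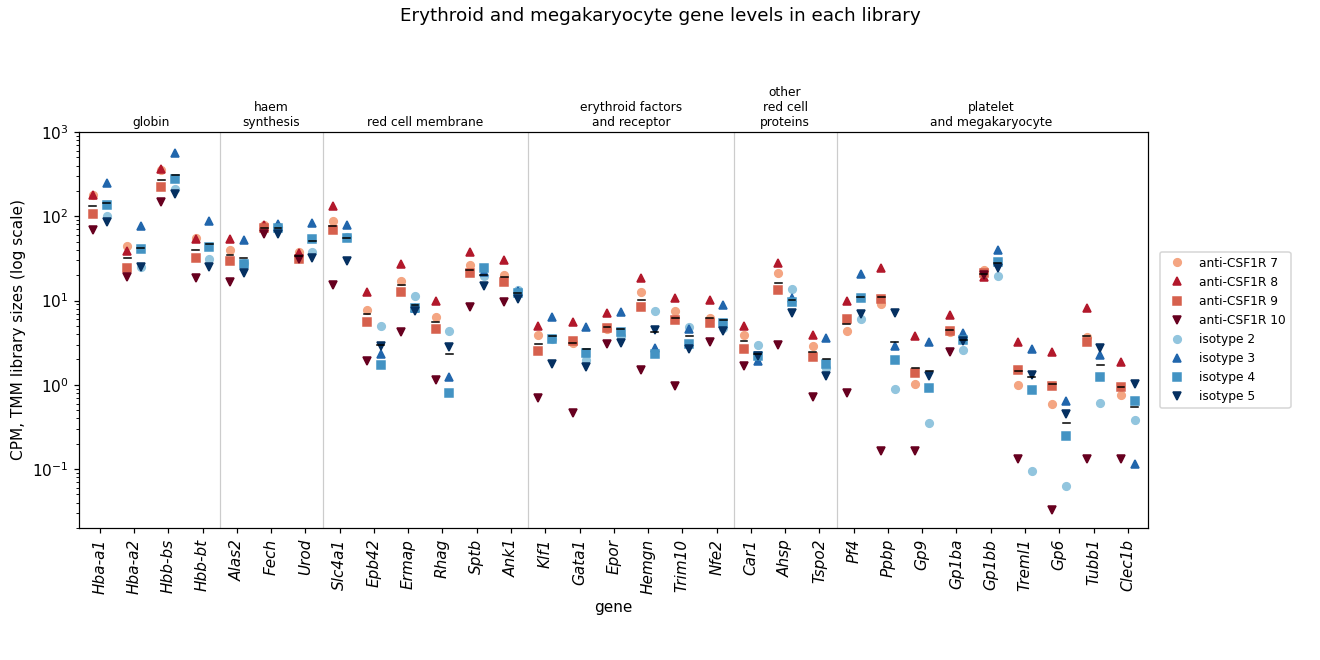
CPM on TMM library sizes (y axis, log scale) of the 31 genes (x axis) in each library, red for anti-CSF1R and blue for isotype; a black line marks the mean of 4 libraries. Anti-CSF1R 10, the dark red triangle pointing down, is the lowest of all 8 libraries for 24 of the 31 genes, and the groups overlap for all of them.

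Haem synthesis gave 3 different patterns. Alas2 encodes the erythroid form of the first and rate-limiting enzyme of haem synthesis, and its promoter, printed above, carries a GATA motif 86 bases before the start. It had 40.2, 53.9, 29.1 and 16.7 CPM in anti-CSF1R 7 to 10, against 27.7, 52.9, 27.5 and 21.3 CPM in isotype 2 to 5 (log2 fold change 0.11 ± 0.38, adjusted p = 0.842). Anti-CSF1R 8 and isotype 3 were its highest libraries. Fech encodes ferrochelatase, which inserts iron into the ring and serves every cell that makes haem. It varied least of the 31 genes, with 72.5 ± 7.75 CPM in anti-CSF1R libraries and 72.7 ± 8.51 CPM in isotype libraries, and its 95% interval of -0.33 to 0.33 was the narrowest. With an offset fitted for GC content and transcript length, however, the log2 fold change of Fech was -0.55 ± 0.26, outside that interval. Urod, uroporphyrinogen decarboxylase, had 37.9, 37.0, 30.7 and 31.2 CPM in anti-CSF1R 7 to 10, against 37.7, 82.7, 53.6 and 31.6 CPM in isotype 2 to 5. Its log2 fold change of -0.59 ± 0.28 (adjusted p = 0.282) rested on isotype 3 and 4: against isotype 2 and 5 alone it was -0.02 ± 0.11. Of 12 other genes of haem synthesis and its transporters, 0 rose and 0 fell. Alas1, the housekeeping form of the first enzyme, had the smallest p among them, with 27.1 ± 1.55 CPM in anti-CSF1R libraries and 40.3 ± 10.6 CPM in isotype libraries (adjusted p = 0.257). Tmem14c, a mitochondrial porphyrin transporter and the gene with the highest mean over all 8 libraries, had 46.4 ± 5.92 CPM in anti-CSF1R libraries and 72.6 ± 36.0 CPM in isotype libraries (log2 fold change -0.65, adjusted p = 0.281), but against isotype 2 and 5 alone its log2 fold change was -0.01. For Alas1 the log2 fold change was -0.57, and -0.27 against isotype 2 and 5 alone.

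The 6 red cell membrane genes all had log2 fold changes above 0, with a median of 0.73, and none passed the test (adjusted p 0.278 to 0.713). Epb42 encodes protein 4.2, which ties band 3 to the skeleton. It had 7.72, 12.6, 5.51 and 1.91 CPM in anti-CSF1R 7 to 10, against 4.98, 2.29, 1.72 and 2.86 CPM in isotype 2 to 5. Anti-CSF1R 7, 8 and 9 lay above every isotype library, and anti-CSF1R 10 lay among them. The log2 fold change was 1.23 ± 0.53 (edgeR adjusted p = 0.278), and Epb42 was the gene called before adjustment. Rhag encodes the Rh-associated glycoprotein of the red cell surface and has a GATA motif 31 bases before its start. It had 6.40, 9.80, 4.62 and 1.16 CPM in anti-CSF1R 7 to 10, against 4.34, 1.22, 0.793 and 2.83 CPM in isotype 2 to 5 (log2 fold change 1.26 ± 0.66, adjusted p = 0.292). Here too anti-CSF1R 7, 8 and 9 were above every isotype library, and isotype 3 and 4 were the lowest isotype libraries. Ank1, ankyrin 1, had 20.2, 30.0, 16.6 and 9.51 CPM in anti-CSF1R 7 to 10, against 13.2, 13.0, 12.3 and 10.5 CPM in isotype 2 to 5 (log2 fold change 0.64 ± 0.30, adjusted p = 0.281). The isotype libraries lay close together for Ank1, and the anti-CSF1R libraries spread to both sides of them.

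Slc4a1 encodes band 3, the anion exchanger and the main protein of the red cell membrane. It had 88.0, 134, 68.0 and 15.3 CPM in anti-CSF1R 7 to 10, against 56.3, 79.4, 55.6 and 29.4 CPM in isotype 2 to 5 (log2 fold change 0.47 ± 0.55, adjusted p = 0.540). Its highest and its lowest value over all 8 libraries were both in anti-CSF1R libraries. Ermap, an erythroid membrane protein of the immunoglobulin superfamily, averaged 15.4 ± 9.69 CPM in anti-CSF1R libraries and 8.77 ± 1.65 CPM in isotype libraries (log2 fold change 0.82 ± 0.46, adjusted p = 0.300). Sptb, the beta chain of erythroid spectrin, averaged 23.3 ± 12.2 CPM in anti-CSF1R libraries and 20.3 ± 4.10 CPM in isotype libraries (log2 fold change 0.20 ± 0.39, adjusted p = 0.713). Slc4a1 counts as a percentage of the counts of the 4 globin genes were 14.0%, 21.2%, 17.7% and 6.06% in anti-CSF1R 7 to 10, against 15.3%, 8.12%, 11.2% and 9.20% in isotype 2 to 5. Rhag counts were a steady 6.79% to 7.56% of those of Slc4a1 in the 4 anti-CSF1R libraries, and 7.71%, 1.54%, 1.43% and 9.62% of them in isotype 2 to 5. Of 12 other red cell membrane genes, 0 rose and 0 fell, and 10 had log2 fold changes above 0 (median 0.19). Xk, the Kell-associated membrane protein, had the smallest p, with 3.21 ± 1.12 CPM in anti-CSF1R libraries and 1.89 ± 0.624 CPM in isotype libraries (adjusted p = 0.278). Aqp1, a water channel of red cells and endothelium, was the most abundant, with 276 ± 17.2 CPM in anti-CSF1R libraries and 306 ± 122 CPM in isotype libraries (log2 fold change -0.15, adjusted p = 0.672), and a log2 fold change of 0.33 against isotype 2 and 5 alone.

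Among the erythroid factors, Gata1 encodes the transcription factor that both lineages require. It had 3.15, 5.52, 3.27 and 0.462 CPM in anti-CSF1R 7 to 10, against 1.95, 4.81, 2.41 and 1.61 CPM in isotype 2 to 5 (log2 fold change 0.21 ± 0.61, adjusted p = 0.815). Klf1 encodes the activator of adult beta-globin. It had 3.88, 4.96, 2.51 and 0.693 CPM in anti-CSF1R 7 to 10, against 3.51, 6.45, 3.50 and 1.77 CPM in isotype 2 to 5 (log2 fold change -0.33 ± 0.56, adjusted p = 0.670). For both genes anti-CSF1R 10 was the lowest of the 8 libraries, and anti-CSF1R 8 and isotype 3 were the highest. Hemgn, hemogen, a nuclear protein of erythroblasts, had 12.8, 18.4, 8.41 and 1.52 CPM in anti-CSF1R 7 to 10, against 7.57, 2.75, 2.34 and 4.48 CPM in isotype 2 to 5 (log2 fold change 1.26 ± 0.65, adjusted p = 0.289). Anti-CSF1R 7, 8 and 9 lay above every isotype library for Hemgn and anti-CSF1R 10 lay below every one.

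Trim10, an erythroid TRIM protein, averaged 6.28 ± 4.11 CPM in anti-CSF1R libraries and 3.81 ± 1.11 CPM in isotype libraries (log2 fold change 0.72 ± 0.57, adjusted p = 0.378). Epor, the erythropoietin receptor, averaged 4.88 ± 1.69 CPM in anti-CSF1R libraries and 4.63 ± 1.83 CPM in isotype libraries (log2 fold change 0.08 ± 0.33, 95% interval -0.66 to 0.81). Nfe2, a subunit of the NF-E2 factor of erythroid cells and megakaryocytes, averaged 6.26 ± 2.90 CPM in anti-CSF1R libraries and 5.82 ± 2.09 CPM in isotype libraries (log2 fold change 0.11 ± 0.36). The adjusted p of Epor was 0.870 and that of Nfe2 0.841. Erythropoietin itself, Epo, had 0 counts in all 8 libraries. That allows up to 0.0573 CPM in a library, or more if both mates of a read pair were counted. Of 11 tested genes of erythropoietin signalling and iron uptake, 0 rose and 0 fell. Steap3, an endosomal iron reductase, had the smallest p, with 18.2 ± 0.281 CPM in anti-CSF1R libraries and 28.8 ± 10.9 CPM in isotype libraries (log2 fold change -0.66, adjusted p = 0.278), and a log2 fold change of -0.17 against isotype 2 and 5 alone. The transferrin receptor Tfrc, the most abundant of them, had 102 ± 31.1 CPM in anti-CSF1R libraries and 128 ± 71.5 CPM in isotype libraries (log2 fold change -0.33, adjusted p = 0.572), and a log2 fold change of -0.89 against isotype 2 and 5 alone. Of 10 other erythroid transcription factor genes, 0 rose and 0 fell. Bcl11a, a repressor of embryonic globin genes, had the smallest p, with 5.03 ± 0.495 CPM in anti-CSF1R libraries and 3.44 ± 0.623 CPM in isotype libraries (adjusted p = 0.257). Ldb1, the cofactor that links GATA1 complexes, had 158 ± 1.53 CPM in anti-CSF1R libraries and 177 ± 39.1 CPM in isotype libraries (log2 fold change -0.16, adjusted p = 0.495), and a log2 fold change of 0.11 against isotype 2 and 5 alone.

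The 3 other red cell proteins gave estimates above 0. Ahsp encodes the chaperone of free alpha-globin. It had 20.9, 27.5, 13.5 and 2.94 CPM in anti-CSF1R 7 to 10, against 13.7, 10.6, 9.74 and 7.12 CPM in isotype 2 to 5 (log2 fold change 0.66 ± 0.54, adjusted p = 0.393). Again the highest and the lowest library were both in the anti-CSF1R group. Car1, carbonic anhydrase 1, averaged 3.29 ± 1.46 CPM in anti-CSF1R libraries and 2.32 ± 0.454 CPM in isotype libraries (log2 fold change 0.51 ± 0.33, adjusted p = 0.324). Tspo2, an erythroid relative of the translocator protein, averaged 2.43 ± 1.35 CPM in anti-CSF1R libraries and 2.04 ± 1.03 CPM in isotype libraries (log2 fold change 0.26 ± 0.49, adjusted p = 0.710). Of 11 genes of reticulocyte maturation, 0 rose and 0 fell. The gene with the smallest p in that list was also its most abundant: Prdx2, a peroxiredoxin of red cells, had 130.4 ± 13.5 CPM in anti-CSF1R libraries and 219 ± 122 CPM in isotype libraries (log2 fold change -0.75, adjusted p = 0.278). Against isotype 2 and 5 alone the log2 fold change of Prdx2 was -0.0039.

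The 9 platelet and megakaryocyte genes had a median log2 fold change of 0.40, with 7 above 0 and 2 below 0, and none passed the test. They varied more from library to library than the erythroid genes, with a median biological coefficient of variation of 0.795 against 0.425. Pf4 and Ppbp encode the platelet chemokines CXCL4 and CXCL7, which are packed in the same alpha granules. Pf4 had 4.31, 9.84, 6.01 and 0.792 CPM in anti-CSF1R 7 to 10, against 6.00, 20.5, 10.8 and 6.84 CPM in isotype 2 to 5 (log2 fold change -1.07 ± 0.65, adjusted p = 0.311). For Pf4 it was -0.29 ± 0.89 against isotype 2 and 5 alone. Ppbp had 9.01, 24.4, 10.4 and 0.165 CPM in anti-CSF1R 7 to 10, against 0.894, 2.86, 1.98 and 7.04 CPM in isotype 2 to 5 (log2 fold change 1.78 ± 1.03, adjusted p = 0.303). With all 4 isotype libraries, these were the lowest and the highest of the 31 estimates. Ppbp was above every isotype library in anti-CSF1R 7, 8 and 9, and below every one in anti-CSF1R 10. The ratio of Ppbp to Pf4 counts was 2.09, 2.48, 1.73 and 0.208 in anti-CSF1R 7 to 10, against 0.149, 0.140, 0.183 and 1.03 in isotype 2 to 5. Both groups thus held a library that was unlike the rest of its group in this ratio, anti-CSF1R 10 and isotype 5.

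Gp1ba, Gp1bb and Gp9 encode chains of the von Willebrand factor receptor. Gp1ba, whose promoter has 3 GATA motifs, had 4.19, 6.68, 4.37 and 2.43 CPM in anti-CSF1R 7 to 10, against 2.57, 4.12, 3.42 and 3.34 CPM in isotype 2 to 5 (log2 fold change 0.40 ± 0.30, adjusted p = 0.364). Gp9 had 1.02, 3.80, 1.38 and 0.165 CPM in anti-CSF1R 7 to 10, against 0.351, 3.25, 0.925 and 1.27 CPM in isotype 2 to 5 (log2 fold change 0.15 ± 0.84, adjusted p = 0.901). For both genes anti-CSF1R 8 was the highest library and anti-CSF1R 10 the lowest. Gp1bb, the most abundant of the 9 platelet genes, stood apart from them, with 23.0, 19.1, 21.1 and 19.9 CPM in anti-CSF1R 7 to 10, against 19.6, 39.7, 28.6 and 24.6 CPM in isotype 2 to 5 (log2 fold change -0.44 ± 0.21, adjusted p = 0.283). Its log2 fold change was -0.09 ± 0.11 against isotype 2 and 5 alone. In the GENCODE M21 annotation Gp1bb overlaps Sept5 on the same strand, so that counts of the pair could be shared, and its level cannot be read as platelet RNA alone. Gp6, the collagen receptor, had 0.595, 2.48, 0.981 and 0.0330 CPM in anti-CSF1R 7 to 10, against 0.0638, 0.649, 0.248 and 0.452 CPM in isotype 2 to 5 (log2 fold change 1.55 ± 0.94, adjusted p = 0.311). The level in anti-CSF1R 10 rested on 2 counts, under the detection floor. Treml1, a receptor of platelet granule membranes, averaged 1.45 ± 1.29 CPM in anti-CSF1R libraries and 1.23 ± 1.08 CPM in isotype libraries (log2 fold change 0.25 ± 0.91, adjusted p = 0.850). Clec1b, the platelet receptor for podoplanin, averaged 0.934 ± 0.726 CPM in anti-CSF1R libraries and 0.540 ± 0.385 CPM in isotype libraries (log2 fold change 0.78 ± 0.74, adjusted p = 0.454), and it overlaps Clec9a on the same strand.

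Tubb1 encodes the beta-tubulin of the marginal band of platelets. It had 3.73, 8.13, 3.20 and 0.132 CPM in anti-CSF1R 7 to 10, against 0.607, 2.27, 1.24 and 2.7 CPM in isotype 2 to 5 (log2 fold change 1.16 ± 0.86, adjusted p = 0.359). The order of the libraries was much like that of Ppbp, with anti-CSF1R 7, 8 and 9 above every isotype library and anti-CSF1R 10 below all of them. Of 17 other platelet and megakaryocyte genes, 0 rose and 0 fell, and 14 had log2 fold changes above 0 (median 0.45). The smallest p and the highest level in that list belonged to Itgb3, the integrin beta chain of the fibrinogen receptor, which osteoclasts also carry. It had 165 ± 14.0 CPM in anti-CSF1R libraries and 278 ± 73.3 CPM in isotype libraries (log2 fold change -0.76 ± 0.20, adjusted p = 0.159). Against isotype 2 and 5 alone Itgb3 passed the test (log2 fold change -0.39, adjusted p = 0.0355), while none of the 31 genes did (0 of 31, against 3.06% of all genes). Over 20 alternatives its adjusted p ran from 0.0187 to 0.747. Osteoclast markers summed to 2039.6 to 2784 CPM in anti-CSF1R libraries and 5557 to 13239 CPM in isotype libraries, and their part in the level of Itgb3 was not tested.

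The libraries of the anti-CSF1R group differed from each other in a pattern that most of the 31 genes shared. Anti-CSF1R 8 was the highest and anti-CSF1R 10 the lowest library of that group for 25 of the 31 genes, against 9.03% of all genes tested. The exceptions were Hba-a1, Hba-a2, Hbb-bt, Fech, Urod and Gp1bb. Anti-CSF1R 10 was the lowest of all 8 libraries for 24 of the 31 genes (12.6% of all genes), and anti-CSF1R 8 the highest of all 8 for 21 (8.67% of all genes). The full order 8, 7, 9, 10 from high to low was shared by 15 of the 22 erythroid genes and by 1 of the 9 platelet genes, against 4.56% of all genes. Genes of 1 lineage share their cells of origin, so these counts are not independent of each other.

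The distance between these libraries was large. The level in anti-CSF1R 8 was at least 2 times that in anti-CSF1R 10 for 28 of the 31 genes (3.84% of all genes), with a median ratio of 6.51 against 0.992 over all genes. The ratio was 2.46 for Hbb-bs, 3.22 for Alas2, 8.73 for Slc4a1, 11.9 for Gata1 and 12.1 for Hemgn. For the platelet genes it was 12.4 for Pf4, 61.6 for Tubb1 and 148 for Ppbp, where anti-CSF1R 10 had 8 counts of Tubb1 and 10 of Ppbp. Only Fech (1.26), Urod (1.18) and Gp1bb (0.958) had ratios below 2. The spread on the log2 scale was larger among anti-CSF1R than among isotype libraries for 22 of the 31 genes, against 10.6% of all genes. The 9 others were the 4 globin genes, Fech, Urod, Epor, Gp1bb and Treml1. Among the isotype libraries, isotype 3 was the highest for 19 of the 31 genes (38.4% of all genes).

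**Figure D3:**
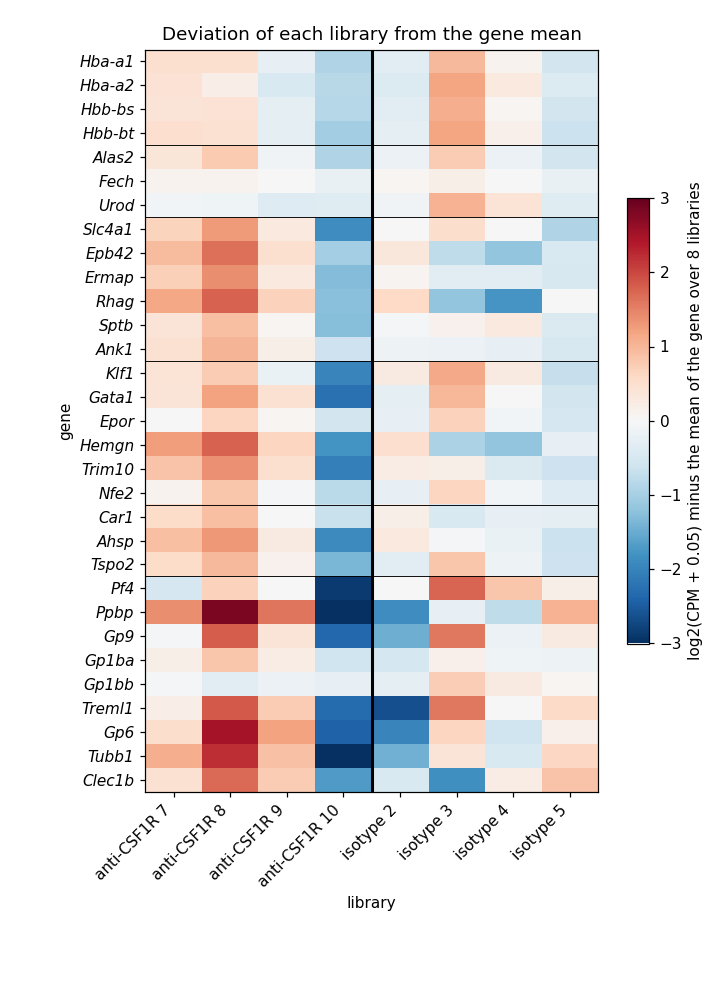
Deviation of each library (x axis) from the mean of the gene over all 8 libraries for the 31 genes (y axis), as log2(CPM + 0.05), red above and blue below the mean; the colour scale ends at 3 and -3. The column of anti-CSF1R 8 is red and that of anti-CSF1R 10 blue for nearly all genes, with median deviations of 0.97 and -1.27 on the log2 scale.

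The comparison between the groups changed with the libraries kept. Without anti-CSF1R 10, the median log2 fold change of the 31 genes was 0.57, with 25 above 0, and 13 genes had an unadjusted p below 0.05, all higher in anti-CSF1R libraries, against 9.29% of all genes in that fit. They were Slc4a1, Epb42, Ermap, Rhag and Ank1 of the membrane, Hemgn, Trim10, Car1 and Ahsp, and the platelet genes Ppbp, Gp1ba, Gp6 and Tubb1. None passed after adjustment (lowest adjusted p = 0.264, Ermap, log2 fold change 1.13 ± 0.28). Without anti-CSF1R 8 the median was -0.07, with 14 genes above 0 and 17 below. For most of the genes these were the lowest and the highest library of the group, so such shifts follow from leaving them out. The 2 fits show how much each library weighed and are no test of a rise or a fall. Cell cycle markers, which mark dividing cells of any type, summed to 302, 354, 325 and 237 CPM in anti-CSF1R 7 to 10, against 262, 210.5, 168 and 275 CPM in isotype 2 to 5. Of these 8 genes, 4 had log2 fold changes above 0 and 4 below 0, with a median of -0.02. Neutrophil markers summed to 156, 191, 324 and 109.8 CPM in anti-CSF1R 7 to 10, against 290.3, 331, 183 and 123 CPM in isotype 2 to 5, so that anti-CSF1R 10 was lowest there too. B cell markers ran from 69.6 to 90.7 CPM in anti-CSF1R libraries and from 68.7 to 80.5 CPM in isotype libraries. Stem and progenitor markers ran from 158 to 181 CPM in anti-CSF1R libraries and from 157 to 199.9 CPM in isotype libraries, with anti-CSF1R 10 the highest of its group. Cd34 made up most of these sums, with 90.1 to 110.6 CPM in anti-CSF1R libraries, and was itself highest in anti-CSF1R 10. Within that group Meis1 and Procr were also highest in anti-CSF1R 10, and Kit, Flt3, Mecom, Hlf and Gfi1 were not. The rank of the sum is therefore no measure of progenitors as a whole. What set anti-CSF1R 8 and 10 apart was not tested.

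In the isotype group the base composition of a gene went with the level in isotype 3 and 4. GC content, from the longest GENCODE M21 transcript, was known for 30 of the 31 genes (all but Ahsp) and ran from 37.2% in Clec1b to 62.0% in Gp1bb. For all 21 genes with 50% GC or more, the mean log2 level of isotype 3 and 4 was above that of isotype 2 and 5, by a median of 0.83. Of the 9 genes under 50%, 2 were above, with a median of -0.31. The Spearman correlation of GC content with this offset was 0.503 over the 30 genes and 0.687 over 16005 genes, given as a description since the genes share their libraries. Rhag (42.2% GC) had the lowest offset at -1.80 and Treml1 (56.3% GC) the highest at 1.92.

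**Figure D4:**
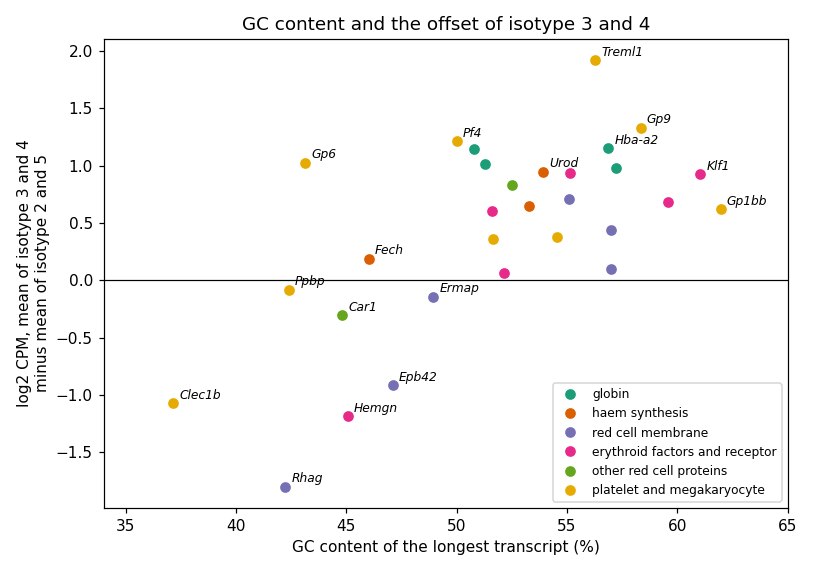
Mean log2 CPM of isotype 3 and 4 minus that of isotype 2 and 5 (y axis) against the GC content of the longest transcript (x axis, %) for 30 genes, coloured by class. All 21 genes at 50% GC or more lie above 0, and 7 of the 9 under 50% lie below it.

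The fold changes between the groups differed along the same line. The 9 genes under 50% GC had a median log2 fold change of 1.23, with 8 of 9 above 0, and the 21 genes at 50% or more had a median of 0.11, with 13 above 0. Over all genes tested, the medians were 0.35 under 50% and -0.25 at 50% or more. Epb42, Rhag, Hemgn, Ppbp and Gp6, which had the 5 largest estimates, all lay under 50% GC. Their offsets of isotype 3 and 4 differed, at -0.92, -1.80, -1.19, -0.08 and 1.03 in that order. Against isotype 2 and 5 alone, 28 of the 31 estimates were above 0, with a median of 0.58, and none passed the test. There the log2 fold change of Rhag was 0.62 ± 0.83, that of Hemgn 0.78 ± 0.99 and that of Clec1b 0.42 ± 0.90, each lower than with all 4 isotype libraries. Those of Gp6 (1.96), Alas2 (0.51), Slc4a1 (0.83), Sptb (0.43), Gata1 (0.81), Epor (0.49), Nfe2 (0.47), Tspo2 (0.79), Gp9 (0.97) and Treml1 (1.05) were higher, and that of Klf1 (0.20) was above 0. With an offset fitted for GC content and transcript length, 27 were above 0, with a median of 0.52.

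The macrophages on which erythroblasts mature were followed by a list of 12 genes used by them. Of these, 0 rose and 1 fell (0.846% of all genes passed in either direction), and the log2 fold changes were above 0 for 6 and below 0 for 6, with a median of -0.03. Adgre1, which encodes the F4/80 antigen of mouse macrophages, had 4.00, 4.44, 5.08 and 2.25 CPM in anti-CSF1R 7 to 10, against 14.9, 12.4, 19.0 and 16.5 CPM in isotype 2 to 5. Every anti-CSF1R library was below every isotype library (log2 fold change -1.99 ± 0.26, edgeR adjusted p = 0.0173). That call was lost in 4 of the 20 alternatives (without anti-CSF1R 7, 8 or 9, and with the muscle covariate), with an adjusted p of at most 0.0820. Slc40a1, the iron exporter ferroportin, had the highest estimate of the list and is named after its values were seen. It had 86.9, 109, 104 and 106 CPM in anti-CSF1R 7 to 10, against 80.5, 32.0, 27.7 and 74.5 CPM in isotype 2 to 5 (log2 fold change 0.92 ± 0.34, adjusted p = 0.278). Isotype 3 and 4 were its lowest libraries, and its GC content was 42.0%. The lowest estimate of the list was that of Siglec1, also named after its values were seen (log2 fold change -2.14 ± 0.43, adjusted p = 0.0674). Over the same libraries the 22 erythroid genes had a median log2 fold change of 0.21, with 15 above 0 and 7 below, and 0 passed.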

How the data were processed

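RNA of parietal bone was measured in 8 libraries, 4 per group, with groups and numbers taken from the sample titles. Libraries were made from 1 µg of RNA with the TruSeq Stranded mRNA kit and read as 101 bp pairs, to 6 Gb a sample, per the labels' protocols. The authors deposited raw counts per gene symbol in 1 table. The submitters' processing notes name STAR 2.7.10b, featureCounts 1.6.3, GRCm38 and GRCm39, with no role for each. Their settings (annotation, strand, multiply mapped reads) are not given in the sources used, and values of paralogs and overlapping genes are uncertain to that extent. Sptb and Ank1, like Alas2, overlap a gene on the opposite strand. Low counts (1 to 10) were even in 82.8% to 84.7% of cases, as if each mate of a read pair had been counted. The counting noise was therefore taken as doubled when libraries of a group were compared, but the detection floor was not. No 2 libraries of a group agreed within the doubled noise.

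Counts were filtered with filterByExpr, scaled by TMM and tested with edgeR 4.0.16 (R 4.3.3, robust quasi-likelihood fit, 2-sided, Benjamini-Hochberg over all genes, threshold 0.05) on all 8 libraries without covariates. The SE is the absolute log2 fold change divided by the square root of F, and 95% intervals use the degrees of freedom of edgeR. Alternatives were other scalings and filters, halved counts, DESeq2 1.42.0, limma-voom (limma 3.58.1), summed or left-out globins, isotype 2 and 5 alone, a GC and length offset, a muscle covariate, and each library left out. The fits were tested on simulated data. All 31 genes are named. From each related list, genes past the threshold are named, or else the gene with the smallest p and the most abundant. The genes and lists were chosen with earlier results of these data known.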

Additional observations from a re-analysis of the deposited data

How the results depend on the processing

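No paired analysis was possible because the groups share no library numbers (7 to 10 against 2 to 5). None of the 31 genes passed the threshold under any of 20 alternatives (lowest adjusted p = 0.101, Urod without isotype 5), and 16 never changed sign (13 above 0, 3 below 0). Of 614 values, 51 had the opposite sign, and the cause was not tested. The count of all genes past the threshold, 144, became 777 with DESeq2, 536 against isotype 2 and 5 alone, 452 with the GC and length offset and 0 with the muscle covariate, and 0 to 260 with 1 library left out. Library size alone moved the median log2 value of all genes to 0.19, against 0.03 with TMM; it gave Hba-a1 0.10, Hbb-bs 0.024 and Fech 0.17. Against isotype 2 and 5 alone the signs turned for Hba-a1 (0.50), Hba-a2 (0.33), Hbb-bs (0.45), Hbb-bt (0.50), Klf1 (0.20) and Fech (0.090). The GC and length offset gave Hba-a1 0.43, Hba-a2 0.16, Hbb-bs 0.18, Hbb-bt 0.11 and Klf1 0.15. It left the sign of Fech as it was but gave -0.55, the lowest Fech value over the 20 alternatives. The muscle covariate gave Hba-a1 0.39, Hba-a2 0.11, Hbb-bs 0.40, Hbb-bt 0.40, Klf1 0.31, Fech 0.13 and Clec1b -0.16. Under limma-voom Gp9 was -0.049 and Gata1 -0.058. Fech was 0.0040 with a filter of 1 CPM in 4 libraries, 6.5e-05 with halved counts and 0.0051 with no filter. With 1 library left out, the log2 fold changes ran from -0.17 to 0.46 for Alas2, -0.17 to 0.38 for Epor, -0.075 to 0.069 for Fech, -0.23 to 0.64 for Gata1, -0.74 to 0.91 for Gp9, -0.29 to 0.29 for Hba-a1, -0.62 to 0.049 for Hba-a2, -0.38 to 0.27 for Hbb-bs, -0.45 to 0.26 for Hbb-bt, -0.68 to 0.047 for Klf1, -0.23 to 0.38 for Nfe2, -0.13 to 0.48 for Sptb, -0.48 to 0.95 for Treml1 and -0.071 to 0.67 for Tspo2. Depth limits the platelet genes most, with 2 counts of Gp6, 8 of Tubb1 and 10 of Ppbp in anti-CSF1R 10.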

Other observations

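Among the related platelet genes, 2 were picked out after their values were seen, because their order within the anti-CSF1R group was like that of most platelet genes described above. Mmrn1, multimerin 1, a protein of platelet and endothelial granules, had 2.72, 5.02, 3.06 and 1.02 CPM in anti-CSF1R 7 to 10, against 0.990, 1.07, 0.198 and 1.92 CPM in isotype 2 to 5 (log2 fold change 1.50 ± 0.62, edgeR adjusted p = 0.278). F5, coagulation factor V, had 3.20, 7.74, 3.98 and 1.09 CPM in anti-CSF1R 7 to 10, against 2.03, 1.15, 0.330 and 1.84 CPM in isotype 2 to 5 (log2 fold change 1.58 ± 0.64, adjusted p = 0.278). For both genes anti-CSF1R 7, 8 and 9 lay above every isotype library, as for Ppbp and Tubb1, and anti-CSF1R 10 lay among them. The isotype order differed: isotype 4 was lowest for Mmrn1 and F5, whereas isotype 2 was the lowest isotype library for Ppbp and Tubb1. GC content was 42.3% for Mmrn1 and 46.2% for F5. Of the 12 other red cell membrane genes, 11 had anti-CSF1R 8 as the highest and anti-CSF1R 10 as the lowest library of the group, and 10 of the 17 other platelet genes did, against 9.03% of all genes tested.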
